A study of Arabidopsis thaliana with 6 samples.

Results

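The genes described here make volatile terpenes and wound volatiles in Arabidopsis thaliana. They are TPS04 (AT1G61120), CYP82G1 (AT3G25180), TPS10 (AT2G24210), TPS02 (AT4G16730), TPS03 (AT4G16740), BSMT1 (AT3G11480) and HPL1 (AT4G15440), 7 of the 33602 genes in the deposited table. They were picked by name with their read counts in these libraries already known, so all their values are a description and none is a test.

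The libraries came from the aerial tissue of 18-day-old plants grown at 22 °C under a day of 16 h and a night of 8 h, 1 library per genotype. The mutant genotypes were ein5-1, ski2-3, ein5-1 ski2-3 (the double mutant below), rdr6-11 alone, and rdr6-11 combined with ein5-1 ski2-3 (the triple mutant below), and the wild type was Col-0. EIN5 is a cytoplasmic exonuclease that degrades RNA from its 5' end, SKI2 is a helicase that feeds RNA to the cytoplasmic exosome, and RDR6 copies RNA into the double strands that small interfering RNAs are cut from. The sources used here do not say how many plants a library pooled, and no library had a replicate, so every difference below is between single libraries.

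Plants release these volatiles when leaves are chewed, wounded or infected. Terpene synthases turn prenyl diphosphates, supplied by the plastid MEP pathway and the cytosolic mevalonate pathway, into monoterpenes, sesquiterpenes and diterpene alcohols. Green leaf volatiles come from fatty acid hydroperoxides made by lipoxygenases, the same substrates from which jasmonate is made, and jasmonate is itself known to switch on many genes of this group in leaves.

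TPS04, geranyllinalool synthase, makes the alcohol from which the homoterpene TMTT is formed, and CYP82G1 is the cytochrome P450 that cuts that alcohol down to TMTT. TPS10 is a monoterpene synthase. TPS03 is an (E,E)-alpha-farnesene synthase in the Col accession, and its neighbour TPS02 carries a frameshift there, by the TAIR10.1 annotation, so it encodes no working enzyme. BSMT1 methylates salicylic and benzoic acid to their volatile esters. HPL1 is the hydroperoxide lyase of green leaf volatiles, and its Col allele is annotated as truncated and non-functional, so for 2 of the 7 genes RNA in these plants stands for no active enzyme.

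Depth and quality set what could be seen. The libraries held between 20205663 reads (Col-0) and 33100379 reads (double mutant), of which 10942840 to 16593256 fell on nuclear genes. Levels below are CPM, reads per 1e+06 nuclear reads after scaling (TMM), where 3 reads, the floor used for a gene with no reads, came to between 0.158 and 0.319. Leaf markers were abundant in every library, with 16916 reads or more for each of CAB1, RBCS1A and RCA. The root marker PYK10 also had 5290 to 9454 reads in every library, and the root marker PHT1-1 had 201 reads in the double mutant and 17 to 38 elsewhere. Each mutated gene kept reads in its own mutant. EIN5 (AT1G54490) had 370 reads in ein5-1, 422 in the triple mutant and 832 in the double mutant, against 599 in Col-0, or scaled log2 ratios to Col-0 of -1.05, -1.26 and -0.54. SKI2 (AT3G46960) had 199 reads in ski2-3, 274 in the triple mutant and 437 in the double mutant, against 279 in Col-0, or log2 ratios of -0.65, -0.78 and -0.37. RDR6 (AT3G49500) had 176 reads in rdr6-11 and 252 in the triple mutant, against 433 in Col-0, or log2 ratios of -1.77 and -1.53. Scaled by TMM, each was thus below Col-0 in every mutant that carries its allele. For SKI2 in the double mutant this depended on the scaling. The median of the 3 mutated genes there, which is the SKI2 ratio, ran between -0.42 and 0.05 over the other scalings.

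Several features set libraries apart. In rdr6-11 and the triple mutant, 82.1% and 81.8% of genes with 1 to 20 reads had counts divisible by 2, while elsewhere 38.5 to 41.7% did. Among the genes described here, 7 of 7 had an even count in the triple mutant and 5 of the 6 with reads did in rdr6-11, but so did 5 of 7 in ein5-1 and 4 of 7 in ski2-3. In the double mutant 1 of 7 did, and in Col-0 3 of the 6 with reads. The same 2 libraries differed in time-of-day genes. The 5 morning clock genes summed to 190.7 CPM in rdr6-11 and 203.2 in the triple mutant, against 19.0 to 24.3 CPM in the other 4 libraries. The 5 evening clock genes summed to 105.9 CPM in rdr6-11 and 94.1 CPM in the triple mutant, against 291 to 353 CPM in the other 4 libraries. In the triple mutant the evening gene ELF4 was at 0 reads, and in ein5-1 the morning genes CCA1 and PRR9 were. Ribosomal RNA genes took 19.2% of nuclear reads in Col-0 and 0.335 to 2.71% in the mutants. The part of these features in the results below was not tested.

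TPS04 and HPL1 carried most of the reads of the group. The 7 genes summed to 610 reads in ein5-1, 1883 in ski2-3, 784 in the double mutant, 139 in rdr6-11, 456 in the triple mutant and 1177 in Col-0. TPS04 and HPL1 together made up 76.8% of those reads in the triple mutant and 89.9 to 98.9% in the other libraries. They were the only 2 of the 7 to reach 100 reads in any library, the minimum set here for calling a difference. The other 5 had between 0 and 80 reads, and 2 of them, TPS10 and BSMT1, had no read in 1 library each.

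TPS04 had 213 reads in ein5-1, 1180 in ski2-3, 51 in the double mutant, 100 in rdr6-11, 288 in the triple mutant and 705 in Col-0. On the scaled level this was 17.7 CPM in ein5-1, 112 in ski2-3, 2.69 in the double mutant, 7.66 in rdr6-11, 18.2 in the triple mutant and 75.0 in Col-0. The ski2-3 library was highest and the double mutant lowest, a range of 5.37 on the log2 scale. Of nuclear genes with 100 reads or more in some library, TPS04 included, 0.870% ranged as widely or more. In the order ski2-3, Col-0, triple mutant, ein5-1, rdr6-11, double mutant, each neighbour differed beyond counting error except the triple mutant and ein5-1, whose log2 difference had a 95% interval of -0.22 to 0.30. These intervals, here and below, cover counting error only.

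**Figure D1:**
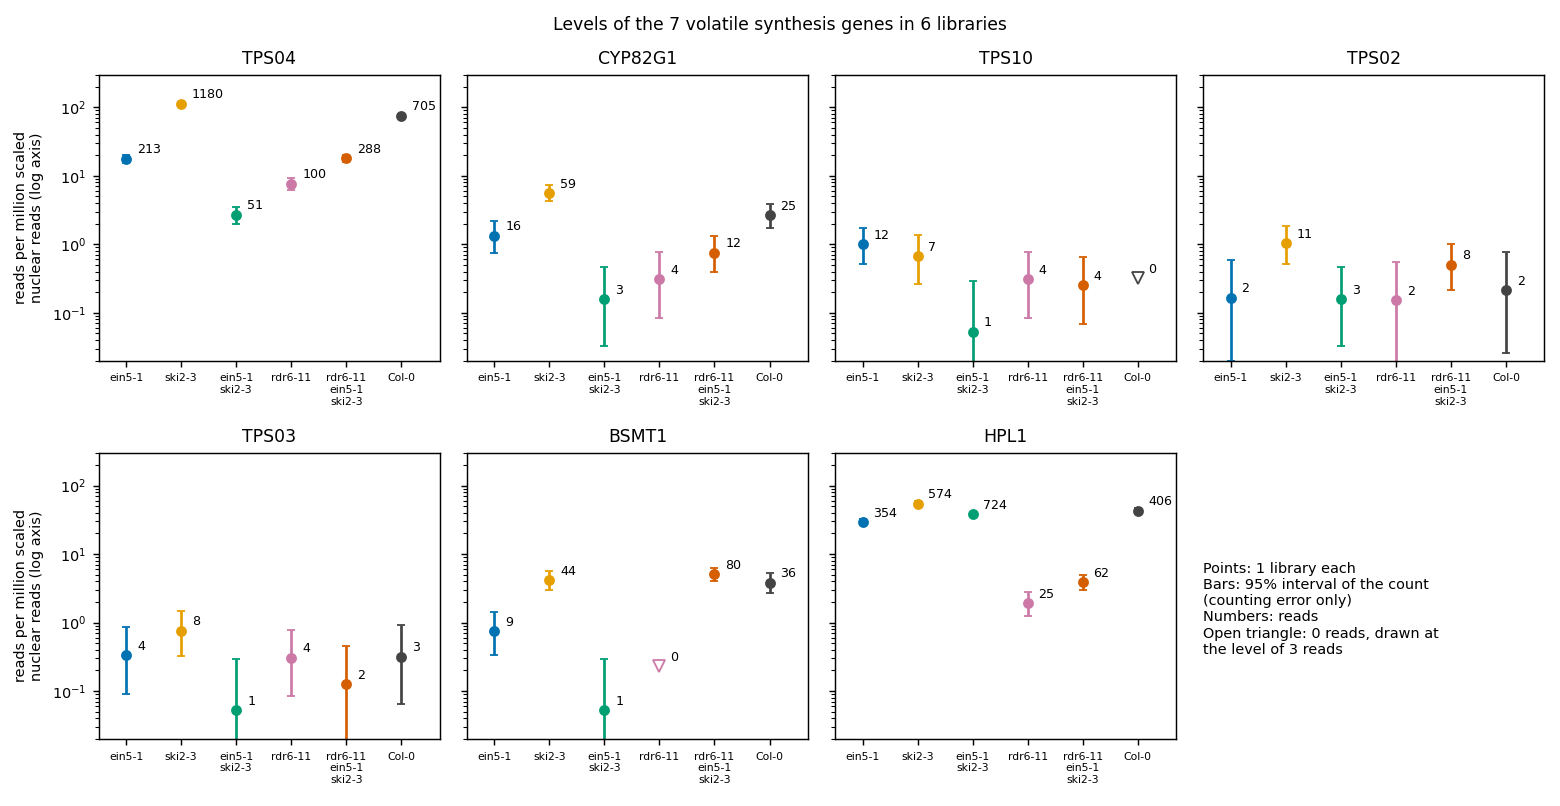
Scaled level of each of the 7 genes in each library (CPM, log axis), with the number of reads printed beside each point. TPS04 spans 2.69 in the double mutant to 112 in ski2-3, HPL1 is lowest in rdr6-11 and the triple mutant, and the other 5 genes hold 80 reads or fewer.

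CYP82G1, the next enzyme of the TMTT pathway, had 16 reads in ein5-1, 59 in ski2-3, 3 in the double mutant, 4 in rdr6-11, 12 in the triple mutant and 25 in Col-0. Like TPS04 it was highest in ski2-3 and next in Col-0, and the 3 reads of the double mutant were the fewest. The differences among ein5-1, the triple mutant, rdr6-11 and the double mutant, taken as neighbours in that order, lay within counting error. The proportion of CYP82G1 to TPS04 inside each library is a measure that no scaling touches. The share of CYP82G1 in the reads of both was 6.99% in ein5-1, 4.76% in ski2-3, 5.56% in the double mutant, 3.85% in rdr6-11, 4.00% in the triple mutant and 3.42% in Col-0. The Clopper-Pearson interval in Col-0, 2.23 to 5.01%, overlapped that of each mutant, the widest of which was 1.16 to 15.4% in the double mutant. Overlap does not show that the shares were equal, and they were not compared directly.

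BSMT1 had 9 reads in ein5-1, 44 in ski2-3, 1 in the double mutant, 0 in rdr6-11, 80 in the triple mutant and 36 in Col-0. The triple mutant was highest and did not differ from ski2-3, nor ski2-3 from Col-0, beyond counting error, while rdr6-11 and the double mutant were lowest. The proportion of BSMT1 to TPS04 set the triple mutant apart. BSMT1 made up 21.7% of the reads of both genes in the triple mutant (interval 17.6 to 26.3%), against 4.86% in Col-0 (3.43 to 6.66%). The share was 1.92% in the double mutant, 3.59% in ski2-3 and 4.05% in ein5-1. In rdr6-11 it was 0 of 100 reads, with an upper bound of 3.62%. Most counts were even in both libraries that carry rdr6-11. Halving them widened the interval of the triple mutant to 16.0 to 28.4%, which still did not meet that of Col-0, and raised the bound in rdr6-11 to 7.11%, above the Col-0 interval. In TAIR10.1, BSMT1 overlaps AT3G11490, a gene for a rac GTPase activating protein. That gene had 219 reads in rdr6-11, where BSMT1 had 0, and 127 to 228 reads in the other libraries. The sources used here do not state whether a read could be assigned to both genes.

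**Figure D2:**
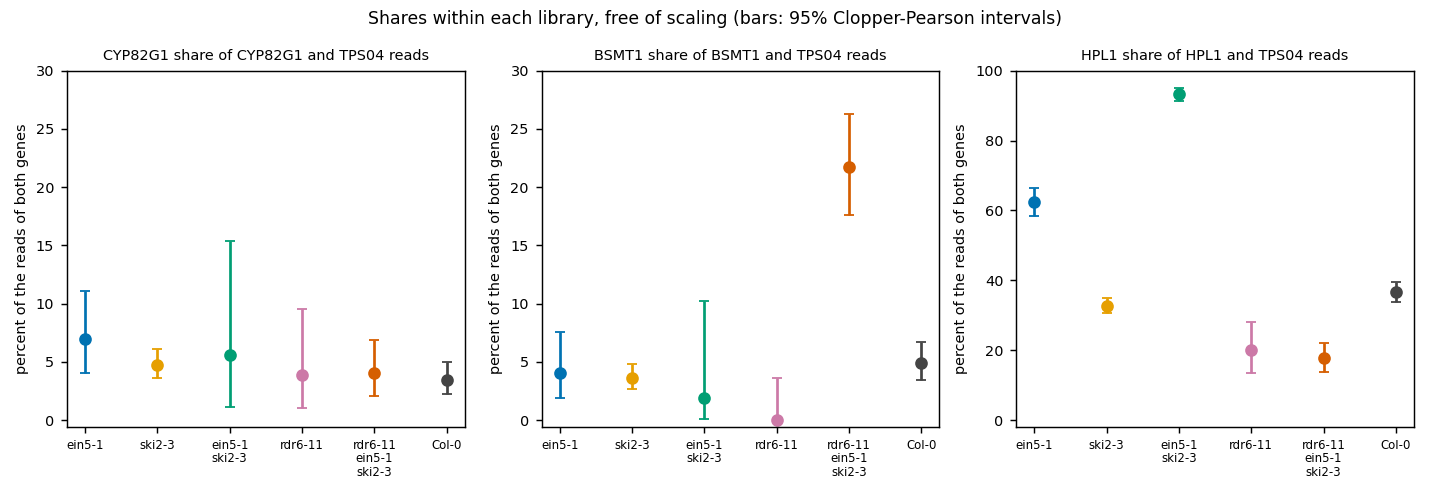
Share of CYP82G1, BSMT1 and HPL1 reads in the summed reads of each gene and TPS04, by library, with 95% Clopper-Pearson intervals. CYP82G1 runs between 3.42% in Col-0 and 6.99% in ein5-1, and BSMT1 reaches 21.7% in the triple mutant. HPL1 runs between 17.7% in the triple mutant and 93.4% in the double mutant.

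HPL1 had 354 reads in ein5-1, 574 in ski2-3, 724 in the double mutant, 25 in rdr6-11, 62 in the triple mutant and 406 in Col-0. Scaled, it stood at 29.4 CPM in ein5-1, 54.5 in ski2-3, 38.1 in the double mutant, 1.92 in rdr6-11, 3.91 in the triple mutant and 43.2 in Col-0. The 2 libraries that carry rdr6-11 were far below the other 4, and they are also the 2 with high morning clock genes. The order was ski2-3, Col-0, double mutant, ein5-1, triple mutant, rdr6-11. Neighbours in that order differed beyond counting error, except that the double mutant and Col-0 change places under 3 of the 5 other scalings and so have no set order. The range was 4.80 on the log2 scale, and 1.20% of the 15747 genes ranged as widely or more.

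The remaining terpene synthases were close to the floor. TPS10 had 12 reads in ein5-1, 7 in ski2-3, 1 in the double mutant, 4 in rdr6-11, 4 in the triple mutant and 0 in Col-0. TPS02 had 2 reads in ein5-1, 11 in ski2-3, 3 in the double mutant, 2 in rdr6-11, 8 in the triple mutant and 2 in Col-0. TPS03 had 4 reads in ein5-1, 8 in ski2-3, 1 in the double mutant, 4 in rdr6-11, 2 in the triple mutant and 3 in Col-0. With the libraries ordered by level, the interval between neighbours spanned 0 throughout for each of these 3 genes. TPS10 was at least 3.12-fold higher in ein5-1, and at least 2.08-fold higher in ski2-3, than in Col-0 set at the floor of 3 reads. These bounds take the mutant counts as exact, and the lower ends of the log2 intervals were 1.12 in ein5-1 and 0.36 in ski2-3. TPS02 and TPS03 are adjacent genes of similar sequence, so reads could have been split between them.

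Between genes, levels can be compared only per length, for which the authors' RPKM values were used. HPL1 had 4.45 RPKM and TPS04 1.65 in ein5-1, and in the double mutant HPL1 had 6.31 and TPS04 0.273. In the other libraries TPS04 was the higher of the pair, with 8.63 RPKM against 6.83 for HPL1 in ski2-3 and 6.23 against 5.84 in Col-0. The Col-0 gap is small beside counting error, with intervals there of 69.6 to 80.8 CPM for TPS04 and 39.1 to 47.6 CPM for HPL1. The pair thus has no set order in Col-0. TPS04 also stood above HPL1 in rdr6-11, at 0.635 against 0.258 RPKM, and in the triple mutant, at 1.66 against 0.583 RPKM. Leaving Col-0 aside, the pair thus changed places between libraries. HPL1 took 93.4% of the reads of both genes in the double mutant (interval 91.4 to 95.1%) and 62.4% in ein5-1, against 36.5% in Col-0 (33.7 to 39.5%). It took 32.7% in ski2-3, 25 of 125 reads in rdr6-11 and 17.7% in the triple mutant.

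Loss of EIN5 alone was read from ein5-1 against Col-0. TPS04 was 4.24-fold lower in ein5-1 (log2 ratio -2.08, interval -2.31 to -1.86). A gene was called different here at 2-fold or more, which is a size limit without a test. To be measured it needed 100 reads only in the library with more reads. The shares of all nuclear genes follow the same rule. Of the 2 measured genes, 1 was called lower and 0 higher, beside 2.04% of 12987 nuclear genes with 100 reads or more called lower and 1.44% called higher. HPL1 had a log2 ratio of -0.56 (-0.77 to -0.35) and was not called. Under 100 reads, BSMT1 had a log2 ratio of -2.30 (-3.60 to -1.28) and CYP82G1 one of -0.99 (-2.01 to -0.04). In bulk tissue, fewer cells that make an RNA and less of it per cell cannot be told apart.

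Loss of SKI2 alone was read from ski2-3 against Col-0. All 7 genes were above Col-0 in ski2-3, and for 5 of them the interval lay above 0. BSMT1 is the exception over the other scalings, where its log2 ratio ran between -0.02 and 0.28. TPS02, on 11 reads in ski2-3 and 2 in Col-0, had a log2 ratio of 2.04 (0.10 to 5.51). TPS10, also among the 5, had 7 reads in ski2-3 and 0 in Col-0. The share of all nuclear genes above Col-0, or with an interval above 0, is not given here. The counts of 7 and 5 thus cannot be read as particular to these genes. Neither TPS04, with a log2 ratio of 0.58 (0.44 to 0.72), nor HPL1, with 0.33 (0.15 to 0.52), was called, so 0 of 2 measured genes passed, beside 2.43% of 12520 nuclear genes called higher and 1.17% called lower. CYP82G1 was 2.08-fold higher in ski2-3 on 59 reads (log2 ratio 1.06, 0.38 to 1.81). BSMT1 differed from Col-0 by 0.12 (-0.54 to 0.80), within counting error.

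In the double mutant TPS04 was 27.7-fold lower than in Col-0 (log2 ratio -4.79, -5.24 to -4.39), its largest difference from Col-0 in the 5 mutants. HPL1 was near the Col-0 level, with a log2 ratio of -0.18 (-0.36 to -0.00). That ratio was above 0 with scaling by total nuclear counts (0.23), by all counts (0.12) and with the authors' RPKM (0.11), so HPL1 has no direction here. Of the 2 measured genes, 1 was called lower and 0 higher, beside 7.04% of 15068 nuclear genes called lower and 8.55% higher. TPS04 passed the read minimum only through Col-0, with 51 reads in the double mutant. CYP82G1, on 3 reads in the double mutant, had a log2 ratio of -3.88 (-6.44 to -2.36). BSMT1, on 1 read, had -5.62 (-11.53 to -3.61).

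The double mutant was also set against each single mutant. Against ein5-1, TPS04 was 6.53-fold lower in the double mutant (log2 ratio -2.71, -3.19 to -2.27). HPL1 was 0.38 above ein5-1 on the log2 scale (0.19 to 0.56) and not called. The count was thus 1 of 2 lower, beside 5.56% of 15084 nuclear genes called lower and 6.81% called higher. Against ski2-3, TPS04 was 41.3-fold lower in the double mutant (log2 ratio -5.37, -5.82 to -4.98). HPL1 had a log2 ratio of -0.52 (-0.67 to -0.35), so the count was again 1 of 2 lower, beside 6.67% of 15093 nuclear genes called in each direction. In both comparisons TPS04 passed the read minimum only through the single mutant, with 51 reads in the double mutant. All 7 genes were below ski2-3 in the double mutant, each with its interval below 0. They include CYP82G1, with 3 reads in the double mutant and 59 in ski2-3 (log2 ratio -4.94, -7.47 to -3.53). Of the 7, 5 had under 100 reads, and the HPL1 ratio ran between -0.56 and -0.11 over the other settings. The share of all nuclear genes with an interval below 0 is not given here, so the count of 7 cannot be read as particular to these genes.

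Adding the log2 ratios of ein5-1 and ski2-3 gave -1.51 for TPS04, and the double mutant minus that sum was -3.28. For HPL1 the sum was -0.22 and the double mutant differed from it by 0.04. With 1 library per genotype, these differences from additivity have no error beyond that of the counts, and all 3 ratios share the Col-0 library.

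Loss of RDR6 was read from rdr6-11 against Col-0, where both measured genes were lower. TPS04 was 9.75-fold lower in rdr6-11 (log2 ratio -3.29, -3.61 to -2.99), and HPL1 was 22.1-fold lower (-4.47, -5.14 to -3.91). The count was 2 of 2 lower, beside 5.77% of 13300 nuclear genes called lower and 4.64% called higher. HPL1 passed the read minimum only through Col-0, with 25 reads in rdr6-11. BSMT1, with 0 reads in rdr6-11, was at least 16.7-fold lower than in Col-0 when set at 3 reads. This bound takes the Col-0 count as exact. The upper end of the log2 interval was -3.69, and -2.69 with the rdr6-11 counts halved. CYP82G1 had 4 reads in rdr6-11 and a log2 ratio of -2.98 (-5.10 to -1.58). The morning clock genes, 5 of 5, were called higher in the same comparison, with a median log2 ratio of 5.31, and 4 of 5 evening clock genes were called lower (median -2.53). In ein5-1, ski2-3 and the double mutant no measured gene of either clock list was called against Col-0.

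In the triple mutant against Col-0 both measured genes were lower as well, 2 of 2, beside 4.62% of 14307 nuclear genes called lower and 6.03% called higher. TPS04 was 4.12-fold lower in the triple mutant (log2 ratio -2.04, -2.25 to -1.85). HPL1 was 11.0-fold lower (-3.46, -3.88 to -3.08), and it passed the read minimum only through Col-0, with 62 reads in the triple mutant. BSMT1 had a log2 ratio of 0.39, with an interval of -0.19 to 1.01 that spans 0, and CYP82G1 stood at -1.78 (-2.94 to -0.77). Clock genes differed here too, with medians of 5.78 for the morning list and -2.64 for the evening list.

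**Figure D3:**
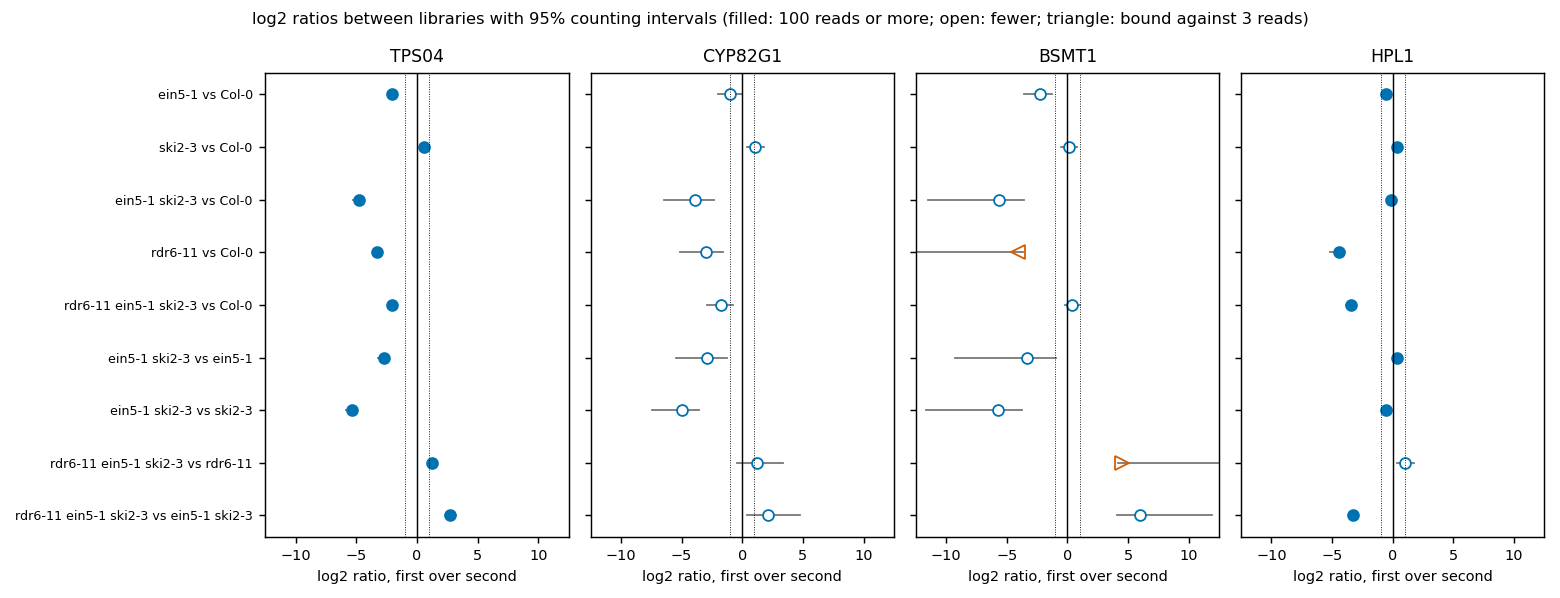
Log2 ratios of the 4 genes with the most reads in 9 comparisons of libraries, first library over second, with 95% counting intervals. Filled points have 100 reads or more in the library with more reads, and open points have fewer. Several filled points have under 100 reads in the other library, such as TPS04 with 51 in the double mutant. Triangles are bounds against 3 reads. TPS04 lies at -4.79 for the double mutant against Col-0 and at 1.24 for the triple mutant against rdr6-11, and HPL1 lies at -3.28 or below wherever 1 library carries rdr6-11 and the other does not.

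The triple mutant and rdr6-11 share the even counts and the clock profile, and differ in EIN5 and SKI2. TPS04 was 2.36-fold higher in the triple mutant than in rdr6-11 (log2 ratio 1.24, 0.91 to 1.59). With the counts of both libraries halved, the interval was 0.77 to 1.74, so the 2-fold call was within counting error of the threshold. The count was 1 of 1 measured gene higher, beside 1.17% of 14234 nuclear genes called higher and 0.274% called lower. HPL1 had a log2 ratio of 1.01 (0.34 to 1.76) on 62 reads, too few for a call. With the counts halved its interval was 0.04 to 2.11. BSMT1, with 80 reads in the triple mutant and 0 in rdr6-11, was at least 22.0-fold higher when rdr6-11 was set at 3 reads. The lower end of its log2 interval was 4.13, and 3.09 with the counts halved. CYP82G1 stood at 1.19 (-0.42 to 3.39) on 12 reads in the triple mutant and 4 in rdr6-11.

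The triple mutant against the double mutant gives the loss of RDR6 where EIN5 and SKI2 are also lost. TPS04 was 6.71-fold higher in the triple mutant (log2 ratio 2.75, 2.32 to 3.22), and HPL1 was 9.68-fold lower (-3.28, -3.68 to -2.91). The count was 1 higher and 1 lower of 2, beside 11.1% of 15642 nuclear genes called higher and 12% called lower. TPS04 passed the read minimum only through the triple mutant, with 51 reads in the double mutant. HPL1 passed it only through the double mutant, with 62 reads in the triple mutant. BSMT1 had 80 reads in the triple mutant and 1 in the double mutant, a log2 ratio of 6.01 (4.06 to 11.90). CYP82G1 had 12 and 3 reads in the same order, a ratio of 2.10 (0.37 to 4.73). With the triple mutant counts halved its interval was 0.03 to 4.89. The 2 libraries differed in clock genes, with a median of 5.06 for the morning list and -2.60 for the evening list, and in even counts. TPS04 thus lay on different sides in the 2 comparisons that take away RDR6, while HPL1 was lower in both.

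Few other terpene synthases had many reads. Of 31 listed, including the members, 2 to 3 reached 100 reads in a comparison, and 3 to 10 had no read in a given library. GA2, the ent-kaurene synthase of gibberellin synthesis, had 132 to 248 reads and log2 ratios to Col-0 between -0.26 and 0.06 in the 5 mutants. AT5G48110, annotated as a terpenoid cyclase, went the other way to TPS04 in the double mutant. It had 233 reads in the double mutant, 24 in ein5-1, 5 in ski2-3, 12 in rdr6-11, 9 in the triple mutant and 11 in Col-0. Its log2 ratio was 3.33 for the double mutant against Col-0 and -4.36 for the triple mutant against the double mutant. CYP82C2, a P450 of the family of CYP82G1, had 109 reads in ein5-1, 488 in ski2-3, 79 in the double mutant, 6 in rdr6-11, 22 in the triple mutant and 163 in Col-0. Its log2 ratios to Col-0 were 1.41 in ski2-3, -2.05 in the double mutant, -5.13 in rdr6-11 and -3.62 in the triple mutant.

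The pathways that supply prenyl diphosphates were mostly within 2-fold of Col-0. In ein5-1, 0 of 7 MEP pathway genes, 0 of 7 mevalonate pathway genes and 0 of 7 prenyl diphosphate synthesis genes were called. In the double mutant, ISPD of the MEP pathway was called lower (log2 ratio -1.24), as were ACAT2 (-1.08) and MK (-1.01) of the mevalonate pathway and FPS2 (-1.06), a farnesyl diphosphate synthase. The list medians there were -0.31, -0.53 and -0.12, beside 0.08 for all nuclear genes measured, and no lower call in these lists held under all of the other 5 scalings. In rdr6-11, 2 of 7 MEP genes were called higher, beside 4.64% of nuclear genes. They were DXS, the first enzyme of the pathway (1.10), and HDR, the last (1.69). DXS (1.14) and HDR (1.63) were also called higher in the triple mutant against Col-0, under each scaling tried. Neither was called in the triple mutant against rdr6-11, at 0.04 for DXS and -0.05 for HDR. In ski2-3, GGR, a subunit of geranyl diphosphate synthase, was the only gene of the 3 lists called (1.06), and the call was lost with some scalings.

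Lipoxygenases and jasmonate synthesis genes differed in ein5-1 and the double mutant as well. In ein5-1, 2 of 8 measured genes of the lipoxygenase and green leaf volatile list were called lower, LOX3 (log2 ratio -1.50) and LOX4 (-2.22), beside 2.04% of nuclear genes, and the list median was -0.34 beside 0.04 for all nuclear genes. LOX3 and LOX4 are lipoxygenases of wounded leaves. Both were lower in the double mutant too, at -2.08 and -1.80. Of the jasmonate synthesis list, 3 of 7 were called lower in ein5-1, AOC3 (-1.59), AOC1 (-1.39) and OPR3 (-1.39), with a median of -0.83. In the double mutant 2 of 7 were called lower, OPR3 (-2.16) and AOC3, beside 7.04% of nuclear genes, with a median of -0.88. AOC3 lay on the 2-fold line there and was called under some scalings only. AOC genes encode allene oxide cyclases and OPR3 the reductase that follows them. The 4 AOC genes are close copies, so reads could have been split among them.

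The same lists stood above Col-0 in ski2-3, though few genes passed 2-fold. All 8 measured jasmonate synthesis genes were above Col-0 in ski2-3, with a median log2 ratio of 0.69 and 0 called. LOX1, at 1.07, was called in the lipoxygenase list (1 of 8, median 0.51), beside 2.43% of nuclear genes called higher. The LOX1 call was lost under some scalings. Against ski2-3, the double mutant had 6 of 8 jasmonate synthesis genes lower (median -1.75) and 5 of 8 genes of the lipoxygenase list lower (median -1.34). Over all nuclear genes 6.67% were called lower there, with a median of 0.04. The lipoxygenase count was 4 to 5 over the other scalings.

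In rdr6-11 the lipoxygenase that differed was another one. LOX2, a plastid lipoxygenase of leaves, had 6025 reads in rdr6-11 and 14878 in the triple mutant, against 43024 in Col-0. Its log2 ratio to Col-0 was -3.31 in rdr6-11 and -2.29 in the triple mutant. LOX3 (-0.06) and LOX4 (0.65) were not called in rdr6-11. With HPL1, LOX2 made up the 2 of 7 measured genes of its list called lower there. AOS (-1.28) and AOC2 (-1.67) were the 2 of 7 jasmonate synthesis genes called lower in rdr6-11. Both counts stand beside 5.77% of nuclear genes called lower in rdr6-11. In the triple mutant against rdr6-11, LOX2 was 1.02 higher on the log2 scale, a call lost under some scalings, and 0 of 8 jasmonate synthesis genes were called.

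Jasmonate signalling genes were called lower for 4 of 12 in ein5-1, beside 2.04% of nuclear genes, with a median of -0.67 beside 0.04 for all. They were JAZ7 (-1.72), JAZ3 (-1.46), MYC2 (-1.26) and JAZ9 (-1.01). JAZ proteins repress jasmonate responses and MYC2 is the transcription factor they bind. In the double mutant 4 of 12 were lower and 1 higher, beside 7.04% and 8.55% of nuclear genes (median -0.52 beside 0.08), with JAZ7 at -3.25, JAZ9 at -2.34 and MYC4, a relative of MYC2, at 1.14. In ski2-3 none of 12 was called. In rdr6-11, JAZ7 was higher (1.48) and MYC3 lower (-1.54). Over the other scalings, 2 to 4 genes were lower in ein5-1. In the double mutant 2 to 4 were lower and 1 to 3 higher, so the balance there depends on the scaling. In rdr6-11 each direction had 1 to 2 genes.

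**Figure D4:**
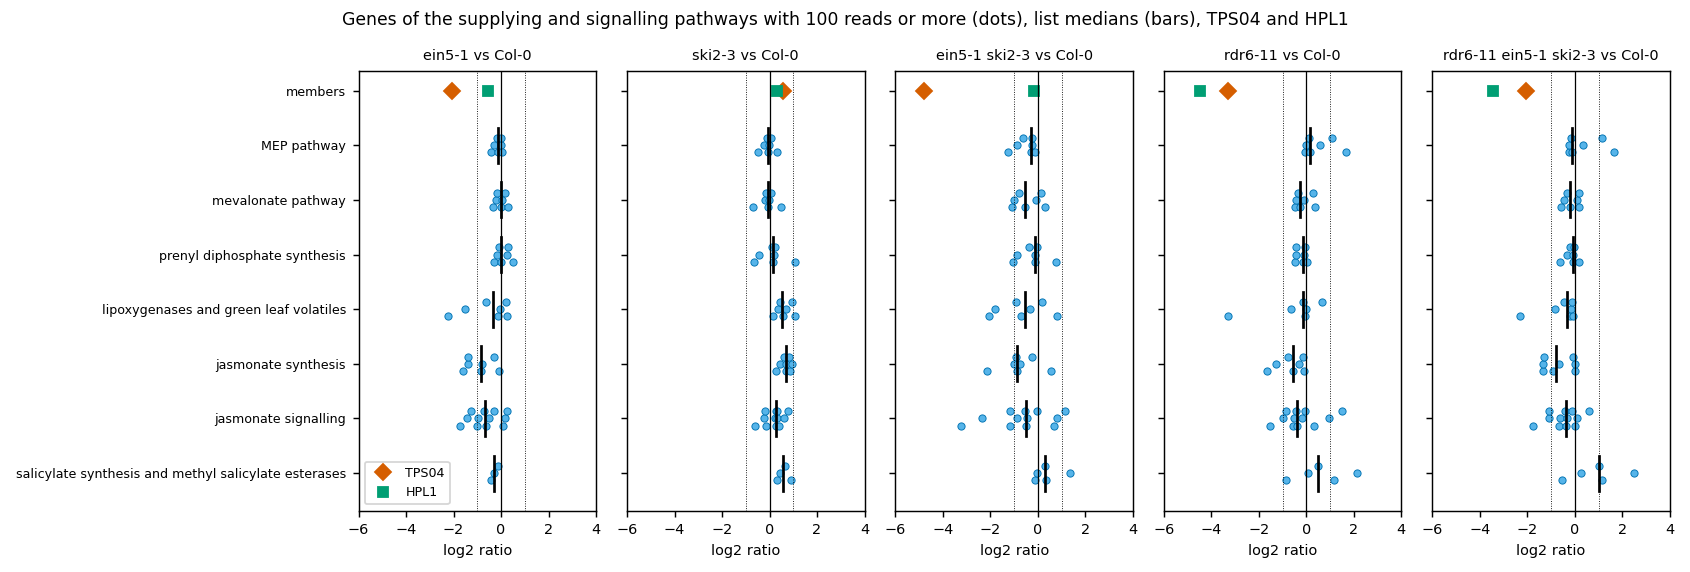
Log2 ratios of the 5 mutants to Col-0 for genes of the supplying and signalling pathways (dots). Each gene had 100 reads or more in the library with more reads. Black bars are list medians, with HPL1 included in its list, dotted lines mark 2-fold, and TPS04 and HPL1 are in the top line. Jasmonate synthesis has a median of -0.88 in the double mutant, -0.83 in ein5-1 and 0.69 in ski2-3, while the MEP pathway stays between -0.31 and 0.16 in all 5 mutants.

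BSMT1 belongs to the SABATH methyltransferases, of which 2 to 5 of 15 reached 100 reads in a comparison. FAMT, a farnesoic acid methyltransferase, was the 1 of 2 measured called in ein5-1 (log2 ratio -1.99) and the 1 of 3 called in the double mutant (-3.86), both against Col-0. Of nuclear genes, 2.04% and 7.04% were called lower in the same comparisons. In the triple mutant against the double mutant, 3 of 5 were called higher and 1 lower, beside 11.1% and 12% of nuclear genes. The higher ones were FAMT (3.01), AT3G21950 (2.47) and JMT (1.88), the jasmonic acid methyltransferase, and the lower one was AT4G36470 (-1.20). Genes that make salicylic acid, the substrate of BSMT1, were set beside it. ICS1, the main route to salicylic acid, had 189 reads in rdr6-11, where BSMT1 had 0, and 300 in the triple mutant, against 31 in Col-0. Its log2 ratio to Col-0 was 2.11 in rdr6-11, 2.50 in the triple mutant and 1.37 in the double mutant. PAL2, a phenylalanine ammonia lyase, was also higher in rdr6-11 (1.16) and the triple mutant (1.14). The whole list had 2 of 5 measured genes called higher in rdr6-11, beside 4.64% of nuclear genes, and 3 of 5 in the triple mutant, beside 6.03%, where the third was PBS3 (1.02), a call lost under some scalings. None was called lower. EDS5, a transporter of salicylic acid synthesis, stood at -0.85 in rdr6-11 and -0.53 in the triple mutant, and PAL1 at 0.07 and 0.28 in the same libraries.

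Among 15747 nuclear genes, the profile nearest to that of TPS04 over the 6 libraries was DIN11, a dark-inducible dioxygenase, by the root mean square difference of centred log2 levels (0.62). AT5G38710 (0.77), of the family of proline dehydrogenase and methylenetetrahydrofolate reductase, and FAMT (0.83) followed. DIN11 had 98 reads in ein5-1, 923 in ski2-3, 68 in the double mutant, 73 in rdr6-11, 108 in the triple mutant and 308 in Col-0. It was highest in ski2-3 and had its lowest scaled level in the double mutant, like TPS04.

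The profile nearest to HPL1 was that of SUFE2 (0.27), a chloroplast protein of iron-sulfur cluster assembly, which had 332 reads in ein5-1, 581 in ski2-3, 541 in the double mutant, 21 in rdr6-11, 54 in the triple mutant and 232 in Col-0. AT3G06895 (0.34) and AT5G35935 (0.38) followed. All 3 shared the low levels of HPL1 in rdr6-11 and the triple mutant. The 6 points of each profile are 6 libraries that also differ in depth and clock genes.

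**Figure D5:**
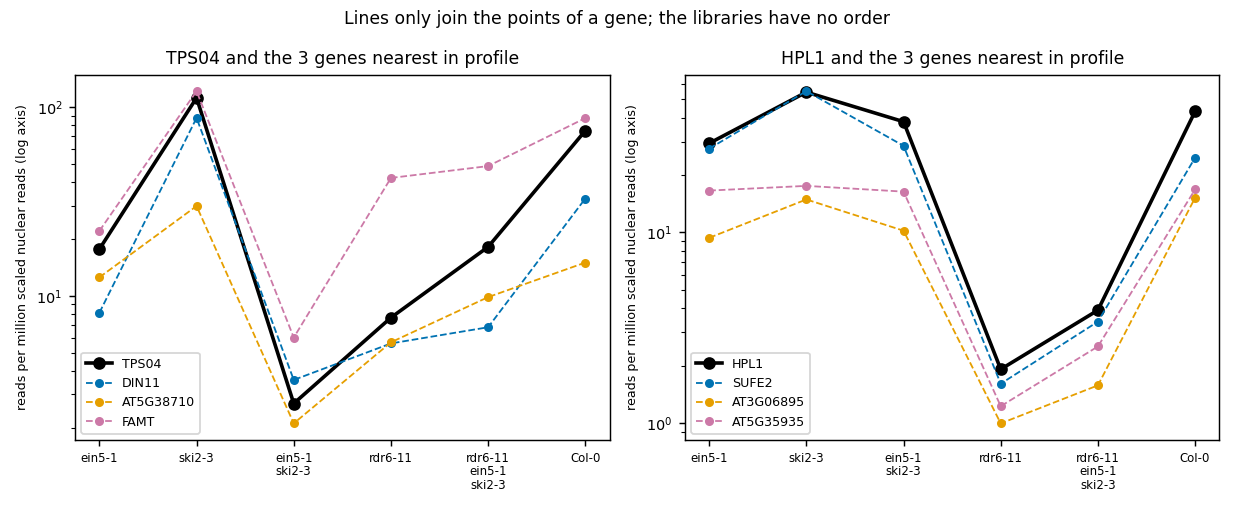
Scaled levels (CPM, log axis) of TPS04, HPL1 and the 3 genes nearest to each in profile across the 6 libraries; lines join the points of a gene and carry no order. DIN11 lies 0.62 from TPS04 and SUFE2 0.27 from HPL1 in root mean square log2 difference.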

How the data were processed

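RNA of aerial tissue was depleted of ribosomal RNA from 10 µg of total RNA and made into 6 libraries, per the labels' protocols. The authors' table gives, per the file headers, the count of reads on each gene, whole numbers by their values, with RPKM values and log2 ratios of RPKM. BWA and the TAIR9 build are named in the submitters' processing notes. The rule that assigned reads to genes and the use of strand are not given in the sources used here. Of the count cells, 31476 had no value and were taken as 0 reads. Where a count of 0 is listed the authors' RPKM is 0.001, and their ratios equal log2 of their RPKM to within 5.27e-07 where both values are given. Deposited p-values and false discovery rates were not used.

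Counts of the 33323 nuclear genes were scaled by TMM, a trimmed mean of log ratios (trims of 0.3 and 0.05), in Python 3.11.15 with numpy 2.4.6, pandas 2.3.3 and scipy 1.17.1; figures used matplotlib 3.10.9. A log2 ratio used a pseudocount of 0.5 and has an exact conditional binomial (Clopper-Pearson) 95% interval, which covers counting error only, since amplified reads are not independent molecules. The 4 ribosomal and 623 transfer RNA genes were then left out. A gene was measured at 100 reads or more in the library with more reads and called at 2-fold or more. This is no test, and 1 library per genotype allows none; a gene at 0 reads is given as a bound against 3 reads. The procedure was tested on simulated data.

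The genes and the lists were chosen with earlier results of these data known. Named genes are the 7 members, list genes with 100 reads or more (called ones first, at most 6 per list and comparison), the mutated genes and the 3 nearest profiles. Names come from the TAIR10.1 table, which 32835 of 33602 identifiers matched; 22 of 130 list entries are not found there by symbol and are called by the table's name or locus. Because that build differs from TAIR9, no coordinates or sequences were used, and promoter motifs were not searched. Alternatives were other scalings, pseudocounts, read minimums and fold thresholds, the authors' ratios, and halved counts for rdr6-11 and the triple mutant.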

Additional observations from a re-analysis of the deposited data

Results flagged for a closer look

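TPS04, the geranyllinalool synthase, differed in opposite directions under the same loss in 2 backgrounds. Where EIN5 and SKI2 were both lost, TPS04 was lower with RDR6 present (log2 ratio -4.79, double mutant against Col-0). TPS04 was higher in rdr6-11 (1.24, triple mutant against rdr6-11), a difference of 6.03. The interval of the second ratio was 0.91 to 1.59, and 0.77 to 1.74 with the counts halved. It lay above 0 but reached below 2-fold, so the opposite call was within counting error of the threshold. Where RDR6 was lost, TPS04 was higher in the ein5-1 ski2-3 background (2.75, triple against double mutant) and lower in Col-0 (-3.29, rdr6-11 against Col-0). This is the same difference of 6.03, from the same 4 libraries. It was not tested, since each genotype had 1 library.

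Of 13595 nuclear genes measured in both comparisons of the first contrast, 27 (0.199%) were called in opposite directions, and of 13235 in the second, 22 (0.166%) were. The 4 libraries also differed in clock genes and even counts, which separate rdr6-11 and the triple mutant from the double mutant and Col-0. The first contrast compares libraries within each of those pairs, and the part of these features in the difference was not tested. The second contrast compares libraries across the pairs, where loss of RDR6 and these features cannot be told apart.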

How the results depend on the processing

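Of the alternative log2 ratios of the 7 genes, 707 stayed within the counting interval, 14 left it and 0 of the called ones changed sign. The 707 include settings with another read minimum or fold threshold, which cannot move a ratio. Halved counts can hardly move one either. The 707 is thus partly fixed in advance and is no measure of stability. Of the alternative counts of called genes among the 7, 186 were within 1.5 times the value reported and 20 were not, through a lower read minimum in all but 1. At a minimum of 30 reads, the genes called lower were 2 in ein5-1 against Col-0, 2 in the double mutant against Col-0 and 3 in the double mutant against ski2-3, and the genes called higher were 1 in ski2-3 against Col-0, 3 in the triple mutant against rdr6-11 and 2 in the triple against the double mutant. With no minimum, the counts were 1 higher and 2 lower in ein5-1, 4 higher in ski2-3, 4 lower in the double mutant, 1 higher and 4 lower in rdr6-11 and 2 higher and 4 lower in the triple mutant, each against Col-0. Also with no minimum, 5 were lower in the double mutant against ein5-1 and 6 against ski2-3, 5 were higher and 1 lower in the triple mutant against rdr6-11, and 5 were higher in the triple against the double mutant. The share of all nuclear genes called at these lower minimums is not given here. With no minimum a gene can pass 2-fold on a few reads, so these counts are not results about the 7 genes. At a 4-fold threshold, 0 genes were called in the triple mutant against rdr6-11. The shift of scale is largest for the double mutant against Col-0, where the median log2 ratio of all nuclear genes measured was 0.08 as reported and 0.02 to 0.49 with the other scalings. The called genes that were higher there made up 54.9% as reported and 49.6 to 87.1% with the other scalings. Against Col-0 that share was 41.4% (38.5 to 74.3) in ein5-1, 67.6% (43.3 to 85.6) in ski2-3, 56.6% (53.9 to 76.5) in the triple mutant and 44.6% (37.8 to 64.3) in rdr6-11. It was 55.04% (51.0 to 70.8) in the double mutant against ein5-1 and 50% (44.2 to 84.0) against ski2-3. In the triple mutant it was 81.1% (77.7 to 92) against rdr6-11 and 48.2% (34.5 to 52.9) against the double mutant. Counts of called nuclear genes moved by over 1.5 times in 98 alternatives and by less in 108. No paired analysis was possible because each genotype had 1 library. Leaving out a replicate was not possible for the same reason. Depth limits TPS10, TPS02, TPS03, CYP82G1 and BSMT1, none of which reached 100 reads.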
